A study of Mus musculus with 96 samples.

Results

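Antigen presentation by major histocompatibility complex (MHC) class II is carried out in the mouse by a small group of genes, and 7 of them are described here. They are H2-Aa, H2-Ab1, H2-Eb1, Cd74, Ciita, H2-DMa and H2-DMb1, chosen by name from a deposited expression table of 21990 genes, of which 20155 have values. All 7 have a value in each of the 96 libraries. The study kept male C57BL/6N mice, bought at an age of 4 weeks, on a chow diet (CD, 13.5% fat) or a high-fat diet (HFD, 60% fat). Hand-picked pancreatic islets and liver tissue of each mouse were taken after 4, 8, 12, 16, 20 or 24 weeks on the diet, and poly(A) RNA was sequenced. There were 4 mice for each diet and week, 48 mice in all, and each gave 1 islet and 1 liver library, so that the libraries form 24 groups of 4. Each week had its own mice, and time on the diet, age and the time of collection cannot be told apart.

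Of the 7 genes 5 lie in the MHC region of chromosome 17, between base 34122719 (start of H2-DMa) and base 34316674 (end of H2-Eb1) of GRCm38, and Ciita lies on chromosome 16 and Cd74 on chromosome 18. Their Entrez identifiers are 14960 for H2-Aa, 14961 for H2-Ab1, 14969 for H2-Eb1, 16149 for Cd74, 12265 for Ciita, 14998 for H2-DMa and 14999 for H2-DMb1.

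Class II molecules are pairs of an alpha and a beta chain that bind peptides in endosomes and show them at the cell surface to CD4 T cells. The invariant chain Cd74 escorts the new pair and covers its groove, the H2-DM pair helps to replace the last fragment of Cd74 by a peptide, and Ciita is the coactivator on which transcription of the class II genes depends. Macrophages, dendritic cells and B cells are the usual class II carriers, among them the resident macrophages of islets and the Kupffer cells of the liver.

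Levels are given in FPKM (fragments scaled to transcript length and library size), as deposited by the authors. The table gives no counts, so the depth behind each value is unknown here. A diet effect is the HFD mean minus the CD mean of log2(FPKM + 1), with its standard error (SE), and "called" means an adjusted p under 0.05 from limma over all genes tested. Adding 1 FPKM makes a fold change on this scale smaller than the fold in FPKM for genes with low values. A gene was tested where at least 4 libraries of the fit reached 1 FPKM. In the fits of 48 islet libraries 6 of the 7 genes were tested, and H2-Eb1 was not. In the fits of 48 liver libraries 5 were tested, and H2-Eb1 and Ciita were not. Ciita passed in islets through 4 libraries, 3 of CD and 1 of HFD mice, and it passed in no single week. Since those are the libraries where it is high, a call of Ciita behind the filter is not counted for it, and its value with no filter is given. Ins1, a marker of beta cells, had a median of 192440 FPKM in islets, and Alb, a marker of hepatocytes, had a median of 32851 FPKM in liver.

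H2-Aa, the alpha chain that pairs with H2-Ab1, differed between weeks in a way its partner did not. In islets the 8 libraries of both diets had median H2-Aa levels of 3.18, 6.75, 37.4, 0.725, 20.5 and 10.7 FPKM from week 4 to week 24. In liver the medians of 8 libraries were 1.76, 7.55, 17.7, 0, 10.9 and 6.03 FPKM in the same order. In both tissues week 12 was highest, week 20 next, and weeks 4 and 16 lowest. As a share of H2-Ab1 in the same library, the median was 92% in islets and 92.5% in liver at week 12, and 1.62% in islets and 0% in liver at week 16. At week 16 H2-Aa was listed at 0 in 3 of 8 islet and 5 of 8 liver libraries, among them all 4 CD livers, so it was not tested in that week in either tissue. H2-Ab1 was never under 5.8 FPKM in any library. A search made after these values were seen counted genes with at least 5 FPKM in each week 12 library and a lowest week 12 value at least 2 times the highest value of week 16. It found 8 genes in islets, 7 in liver and 5 in both, which is 0.0248% of the 20155 genes, and the 5 are H2-Aa, Gabarap, Gm4184, Rpl34-ps1 and Rpl37rt. At a minimum of 4 times it found 6 genes in islets, with H2-Aa, and 5 in liver, without H2-Aa. The cause was not tested. Diet effects of H2-Aa were taken within a week and then averaged or contrasted over the weeks. Its slopes along the weeks, given below for each diet, run over these levels.

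A few libraries stood apart from their groups. Mouse HFD614 at week 24 had the lowest H2-Ab1 and Cd74 of its group in both tissues, with 8.99 and 19.2 FPKM in islets and 9.08 and 20.7 FPKM in liver. Ciita reached 1 FPKM in 4 islet libraries, CD407, CD606, CD608 and HFD113. In 5 liver libraries the islet transcript Ins1 was at least 50 FPKM (CD304, CD306, CD403, CD407 and HFD617), with the highest value, 1073.92 FPKM, in mouse CD306. In 7 islet libraries the B cell marker Ms4a1 was at least 1 FPKM (CD106, CD203, CD407, CD505, CD606, CD608 and HFD113), with the highest value, 5.09 FPKM, in mouse CD608. Where leaving out 1 of these libraries, the livers with Ins1 or the islets with Ms4a1 changed a call, it is named with the result.

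Cd74 was the most abundant of the 7 transcripts in both tissues. In islets the Cd74 medians were 98.9 FPKM for the CD group and 108 FPKM for the HFD group, and the medians of all 48 libraries were 39 FPKM for H2-Ab1, 7.86 for H2-Aa, 3.31 for H2-DMa, 2.02 for H2-DMb1, 0.375 for Ciita and 0.305 for H2-Eb1. In liver they were 36.8 FPKM for Cd74, 16.3 for H2-Ab1, 6.07 for H2-Aa, 2.11 for H2-DMb1, 1.6 for H2-DMa, 0.17 for Ciita and 0.145 for H2-Eb1. The upper end of the order held library by library, since Cd74 was above H2-Ab1 in 48 of 48 libraries of each tissue and H2-Ab1 above H2-Aa in 46 islet and 47 liver libraries. H2-Aa was above the next gene in 36 of 48 islets and 37 of 48 livers, and Ciita above H2-Eb1 in 32 and 30. The beta chain H2-DMb1 was under its alpha chain H2-DMa in 44 of 48 islets and above it in 42 of 48 livers. H2-Eb1, the beta chain of the second class II isotype, stayed between 0 and 1.16 FPKM in all 96 libraries, and its weekly median was between 0.459% and 1.68% of H2-Ab1. Its alpha chain partner, H2-Ea, is present in the table only as the pseudogene H2-Ea-ps, listed at 0 in 45 of 48 islets and 48 of 48 livers. How fragments were shared between H2-Eb1 and similar genes was not tested. The low values of H2-Eb1 are therefore not read as a lack of expression.

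Cd74 and H2-Ab1 were lower in liver than in islets by more than the median tested gene, and H2-DMa and H2-Aa by about as much as it. In the fit of all 96 libraries 6 members were tested and 5 called, where 96.3% of all tested genes were called in either direction. The call of Ciita is not counted, as it passed the filter only through 4 islets and reached 1 FPKM in 0 livers. The liver minus islet difference on the log2(FPKM + 1) scale was -1.36 (SE 0.10) for Cd74, -1.20 (SE 0.10) for H2-Ab1, -0.69 (SE 0.05) for H2-DMa and -0.61 (SE 0.13) for H2-Aa. With no filter Ciita was at -0.27 (SE 0.04, adjusted p = 3.89e-09). For H2-DMb1 it was 0.09 (SE 0.07, adjusted p = 0.228). The median over all genes tested was -0.59, and median ratio scaling of the libraries moved it to -0.05. On that scale Cd74 (-0.69), H2-Ab1 (-0.55) and H2-DMa (-0.22) were still called lower in liver, H2-Aa was not (-0.11, adjusted p = 0.378), H2-DMb1 was called higher (0.53, adjusted p = 3.87e-11) and Ciita was not tested. Without any of the mice CD407, CD606, CD608 or HFD113 Ciita was no longer tested, and 4 members were called. With the mouse as a replicate block, since both tissues came from the same mice, the calls were kept, and Cd74 was at -1.36 (adjusted p = 1.77e-22).

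**Figure D1:**
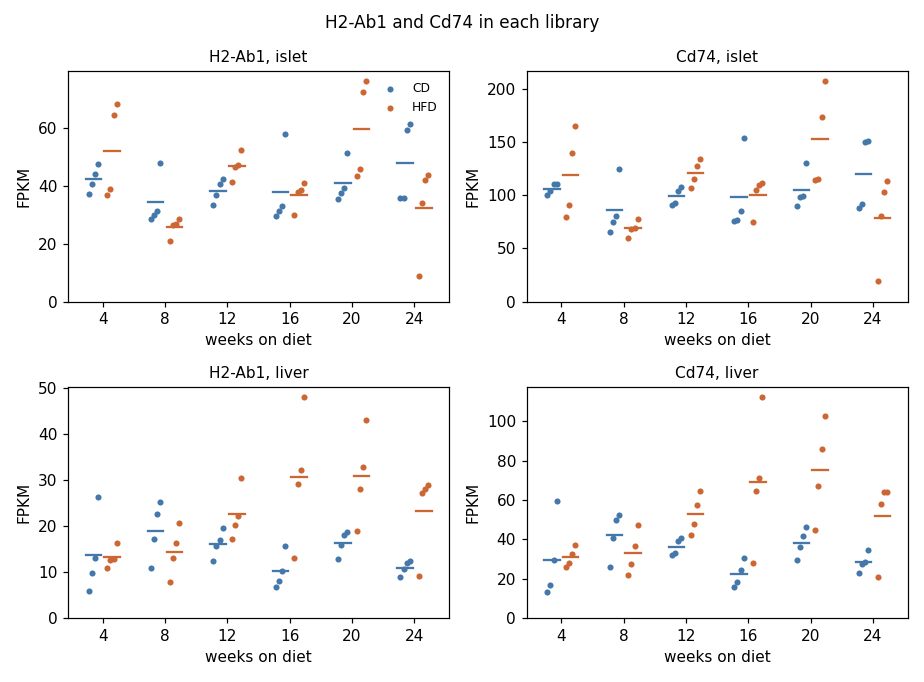
FPKM of H2-Ab1 and Cd74 (y axis) against weeks on diet (x axis) in islets and liver, with 1 point per library, blue for CD and orange for HFD, and a line at each group mean of 4. In liver the HFD points lie above most CD points from week 12 on, and at weeks 16 and 24 1 HFD liver lies far under the other 3.

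In liver, the diet effect over the 6 weeks was upward for the beta chain, the invariant chain and the H2-DM pair. Of the 5 tested members 4 were called higher in HFD livers and 0 lower, where 42.6% of all tested genes were called in either direction. The median diet effect was 0.46 over the 5 members and 0.08 over all genes tested, of which 72.5% were above 0. In bulk tissue, more cells of a type and more RNA per cell cannot be told apart.

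H2-Ab1 ranged in CD livers from 5.8 FPKM through a median of 12.9 to 26.2 FPKM over 24 mice, and in HFD livers from 7.82 through 20.4 to 48.1 FPKM. Cd74 ranged from 13.2 through a median of 31.2 to 59.3 FPKM in 24 CD livers and from 20.7 through 47.3 to 112.48 FPKM in 24 HFD livers. The groups overlapped over the weeks as a whole, and the highest values of both genes came from HFD mice. The diet effect over the 6 weeks was 0.56 (SE 0.14, adjusted p = 0.00197) for H2-Ab1 and 0.59 (SE 0.15, adjusted p = 0.00116) for Cd74, each as a log2 difference. Both genes were above 0 in 5 of 6 weeks and under 0 at week 8. Under median ratio scaling, which moved the all-gene median from 0.08 to -0.02, they were 0.45 (adjusted p = 0.00879) and 0.48 (adjusted p = 0.00563). Without any single library H2-Ab1 stayed between 0.51 and 0.62 and Cd74 between 0.55 and 0.66, called each time.

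H2-DMa and H2-DMb1 form the peptide editor of the class II pathway. H2-DMa ranged from 0.44 through a median of 1.49 to 2.34 FPKM in 24 CD livers and from 0.68 through 2.22 to 4.12 FPKM in 24 HFD livers. H2-DMb1 ranged from 0.57 through 1.9 to 2.8 FPKM in CD livers and from 1.1 through 2.74 to 7.41 FPKM in HFD livers. Both chains thus had an HFD median near the top of the CD range, with overlapping groups. The log2 difference over the 6 weeks was 0.37 (SE 0.09, adjusted p = 0.00057) for H2-DMa and 0.46 (SE 0.10, adjusted p = 0.000292) for H2-DMb1. Leaving out any single library left both called, with H2-DMa between 0.34 and 0.41 and H2-DMb1 between 0.42 and 0.51.

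H2-Aa did not pass the test in liver over the 6 weeks, at 0.37 (SE 0.17, adjusted p = 0.0755). It was called without any one of 5 libraries, at 0.44 without mouse CD103 (adjusted p = 0.0256), 0.44 without mouse HFD118 (0.0195), 0.41 without mouse HFD217 (0.0494), 0.43 without mouse HFD418 (0.0277) and 0.41 without mouse HFD614 (0.0419). Over all single libraries left out its adjusted p ran from 0.0195 to 0.132. The livers of mice HFD118 and HFD418 were listed at 0 for H2-Aa. Ciita, under the filter in liver, ran from 0.05 to 0.27 FPKM in CD and up to 0.66 FPKM in HFD livers. When the filter was dropped its difference was 0.13 (SE 0.03, adjusted p = 0.000941), and the size of that difference is held down by the added 1 FPKM. H2-Eb1 was at 0.05 (SE 0.05, adjusted p = 0.548) in the same fit without the filter.

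**Figure D2:**
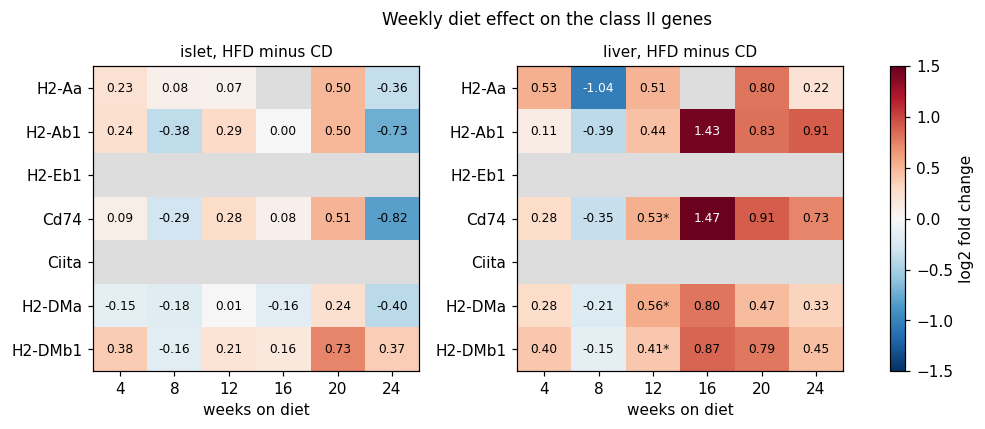
Log2 difference of HFD minus CD (color and printed value) for each gene (y axis) and week on diet (x axis) in islets and liver, from fits of 8 libraries. Grey cells were not tested and a star marks an adjusted p under 0.05; the 3 stars are Cd74, H2-DMa and H2-DMb1 in liver at week 12.

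At week 4 in liver 0 of 5 tested members were called by limma and 0 had an unadjusted p under 0.05, where 0.0506% of all tested genes were called. H2-Ab1 was 5.8, 9.74, 13.1 and 26.2 FPKM in the 4 CD livers and 10.8, 12.7, 12.9 and 16.3 FPKM in the 4 HFD livers. The HFD values lay inside the CD range, and the difference was 0.11 (SE 0.36, adjusted p = 0.895). At week 8 0 of 5 were called, with 1 at an unadjusted p under 0.05, beside 7.49% of all tested genes. All 5 tested members were under 0 in that week, with a median of -0.35 against 0.04 over all genes tested. H2-Aa was 7.09, 9.51, 11.6 and 15.9 FPKM in CD and 2.49, 4.34, 5.05 and 8.01 FPKM in HFD livers. Its 3 lowest HFD livers were under all CD livers, and the difference was -1.04 (SE 0.31, adjusted p = 0.0841).

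At week 12 in liver 4 of 5 tested members, H2-Aa, Cd74, H2-DMa and H2-DMb1, had all 4 HFD above all 4 CD values, as did 14.6% of all tested genes. Ciita, not tested, had them as well. Of the 5 tested members 3 were called higher, beside 10.6% of all tested genes. Cd74 was 31.7, 32.8, 39.1 and 40.5 FPKM in CD and 41.9, 47.5, 57.5 and 64.4 FPKM in HFD livers. H2-DMa was 1.17, 1.23, 1.58 and 1.6 FPKM in CD and 2.14, 2.38, 2.55 and 3.03 FPKM in HFD livers. H2-DMb1 was 1.67, 1.87, 2.01 and 2.24 FPKM in CD and 2.62, 2.68, 2.77 and 3.7 FPKM in HFD livers. None of these 3 genes had an HFD liver inside the CD range. The differences were 0.53 (SE 0.14, adjusted p = 0.0442) for Cd74, 0.56 (SE 0.11, adjusted p = 0.0164) for H2-DMa and 0.41 (SE 0.11, adjusted p = 0.0403) for H2-DMb1. H2-Aa, at 11.7, 13.5, 16.4 and 17.1 FPKM in CD and 18.3, 18.5, 22.1 and 26 FPKM in HFD livers, missed the threshold at 0.51 (SE 0.15, adjusted p = 0.0527), and it was called at 0.58 without mouse CD304 (adjusted p = 0.0265). H2-Ab1 overlapped between the diets and was at 0.44 (SE 0.18, adjusted p = 0.126).

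These week 12 calls depended on single libraries and on the setting. Cd74 lost its call without mouse CD306 (0.49, adjusted p = 0.0902), CD307 (0.47, 0.13) or CD308 (0.57, 0.0874) and without mouse HFD313 (0.57, 0.0613), HFD315 (0.48, 0.117) or HFD318 (0.43, 0.107). H2-DMb1 lost its call without the same 6 mice, with adjusted p values of 0.07, 0.116, 0.115, 0.0562, 0.082 and 0.094 in that order. H2-DMa lost its call without mouse CD307 (0.52, adjusted p = 0.0618) and kept it without each of the other 7. Under median ratio scaling, which moved the all-gene median of that week from 0.11 to -0.02, Cd74 was 0.37 (adjusted p = 0.0762) and H2-DMb1 0.30 (adjusted p = 0.0611), and H2-DMa stayed called at 0.45 (adjusted p = 0.0286). In the fit of 12 groups none of the 3 was called (Cd74 0.329, H2-DMa 0.066, H2-DMb1 0.257), and with no filter Cd74 (0.0734) and H2-DMb1 (0.0614) were not. Without the livers with Ins1, 2 of them CD livers of this week, Cd74 was not called (0.55, adjusted p = 0.0623). Over single libraries left out the adjusted p ran from 0.0258 to 0.13 for Cd74, from 0.0097 to 0.0618 for H2-DMa and from 0.0232 to 0.116 for H2-DMb1.

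The largest weekly differences between the diets were those of liver at week 16. H2-Ab1 was 6.71, 8.05, 10.2 and 15.7 FPKM in CD and 13, 29.1, 32 and 48.1 FPKM in HFD livers. Cd74 was 15.8, 18.2, 24.6 and 30.6 FPKM in CD and 27.8, 64.4, 71.2 and 112.48 FPKM in HFD livers. For both genes 3 HFD livers were above every CD liver, and the lowest HFD liver, mouse HFD411, lay inside the CD range. The differences were 1.43 (SE 0.40, adjusted p = 0.0752) for H2-Ab1 and 1.47 (SE 0.41, adjusted p = 0.0737) for Cd74, neither called. H2-DMa was 0.54, 0.74, 1.09 and 1.42 FPKM in CD and 0.99, 2.57, 2.58 and 3.96 FPKM in HFD livers, and H2-DMb1 had the same lowest HFD mouse. Of the 4 tested members 0 were called by limma and 4 had an unadjusted p under 0.05, beside 7.43% of all tested genes called. The members' median was 1.15 and that of all genes tested 0.09, which median ratio scaling moved to -0.03. Without mouse HFD411 all 4 were called, at 1.77 for H2-Ab1 (adjusted p = 0.0057), 1.85 for Cd74 (0.00353), 1.06 for H2-DMa (0.00621) and 1.17 for H2-DMb1 (0.00757). In a fit of all 12 liver groups together all 4 were called as well, with Cd74 at 1.47 (adjusted p = 0.0062). Over single libraries left out the adjusted p of Cd74 ran from 0.00353 to 0.184 and that of H2-Ab1 from 0.0057 to 0.184.

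At week 20 in liver none of the tested members was called. For 3 of the 5, H2-Ab1, H2-DMa and H2-DMb1, every HFD value was above every CD value, as it was for 6.58% of all tested genes. H2-Ab1 was 12.8, 15.8, 18.1 and 18.8 FPKM in CD and 19, 28, 32.8 and 43.1 FPKM in HFD livers. H2-DMb1 was 1.87, 1.92, 1.94 and 2.8 FPKM in CD and 3.34, 3.79, 3.8 and 7.41 FPKM in HFD livers. The highest HFD liver for both genes was mouse HFD517 and the lowest was mouse HFD518. The differences were 0.83 (SE 0.22, adjusted p = 0.0917) for H2-Ab1, 0.91 (SE 0.24, adjusted p = 0.0906) for Cd74 and 0.79 (SE 0.20, adjusted p = 0.0768) for H2-DMb1. By limma 0 of 5 tested members were called and 5 had an unadjusted p under 0.05, beside 2.47% of all tested genes called. Without mouse HFD518 there were 4 called, H2-Ab1 at 1.03 (adjusted p = 0.015), Cd74 at 1.13 (0.0147), H2-DMa at 0.58 (0.0336) and H2-DMb1 at 0.89 (0.0427). H2-DMb1 was also called in the fit of 12 groups (0.79, adjusted p = 0.0331). Over single libraries left out its adjusted p ran from 0.0427 to 0.19, and that of H2-Ab1 from 0.015 to 0.208.

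At week 24 in liver 3 of 4 HFD mice were far above the CD mice for H2-Ab1 and Cd74. H2-Ab1 was 8.9, 10.5, 11.9 and 12.3 FPKM in CD and 9.08, 27.2, 28.1 and 28.8 FPKM in HFD livers. Cd74 was 23.1, 27.2, 28.2 and 34.8 FPKM in CD and 20.7, 58.2, 64 and 64.2 FPKM in HFD livers. The low HFD value of both genes was that of mouse HFD614. The differences were 0.91 (SE 0.33, adjusted p = 0.224) for H2-Ab1 and 0.73 (SE 0.33, adjusted p = 0.331) for Cd74, and without mouse HFD614 they were 1.30 (adjusted p = 0.00169) and 1.12 (adjusted p = 0.00514), both called. Over single libraries left out the adjusted p ran from 0.00169 to 0.489 for H2-Ab1 and from 0.00514 to 0.621 for Cd74. The other differences were smaller, at 0.22 for H2-Aa (SE 0.27, adjusted p = 0.77), 0.33 for H2-DMa (SE 0.17, 0.401) and 0.45 for H2-DMb1 (SE 0.21, 0.335). None of these genes was called without any single library. With all libraries 0 of 5 members were called by limma and 1 had an unadjusted p under 0.05, beside 0.837% of all tested genes called.

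Over time, the linear slope along the weeks was upward for the 5 tested members in HFD livers. The slope is a log2 difference per 4 weeks over the 6 group means. In HFD livers 5 of 5 were called upward, beside 27.3% of all tested genes, with 0.24 for H2-Aa (SE 0.07, adjusted p = 0.00827), 0.20 for H2-Ab1 (SE 0.06, 0.0129), 0.19 for Cd74 (SE 0.06, 0.0155), 0.10 for H2-DMa (SE 0.04, 0.0293) and 0.15 for H2-DMb1 (SE 0.04, 0.00664). In CD livers 0 of 5 were called by limma and 0 had an unadjusted p under 0.05, beside 28.3% of all tested genes, and the slopes were between -0.05 and 0.11. The difference between these slopes was not tested. The diet effect of weeks 16, 20 and 24 minus that of weeks 4, 8 and 12 was tested, and 0 of 5 were called by limma, with 4 at an unadjusted p under 0.05, beside 0.175% of all tested genes. Its largest value was 1.00 for H2-Ab1 (SE 0.29, adjusted p = 0.206), followed by 0.88 for Cd74 (SE 0.29, adjusted p = 0.333). The slope of H2-Aa runs over the weekly levels given above, which differ in both diets. Its HFD liver means from week 4 to week 24 were 1.91, 4.97, 21.2, 1.73, 15.7 and 6.5 FPKM. This is not a steady rise. In HFD livers the means of H2-Ab1 and Cd74 were 30.7 and 75 FPKM at week 20 and 23.3 and 51.8 FPKM at week 24. The slope of H2-DMa lost its call without mouse HFD113 (0.09, adjusted p = 0.0635), HFD114 (0.10, 0.0627), HFD217 (0.09, 0.0586), HFD517 (0.09, 0.0612), HFD611 (0.10, 0.0622) or HFD616 (0.09, 0.0888). It also lost it without the livers with Ins1 (0.10, 0.0569) and, with H2-Aa (0.36, 0.0624), at a pseudocount of 0.1 (0.15, 0.0524).

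**Figure D3:**
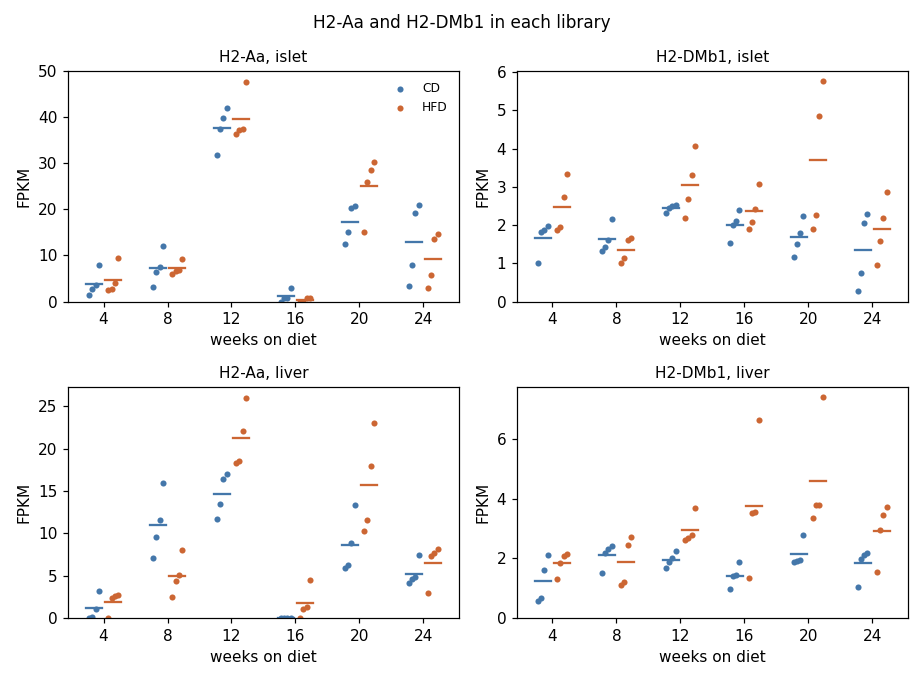
FPKM of H2-Aa and H2-DMb1 (y axis) against weeks on diet (x axis) in islets and liver, with 1 point per library, blue for CD and orange for HFD, and a line at each group mean of 4. The group means of H2-Aa are highest at week 12 and lowest at week 16 in both tissues and both diets.

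In islets, most class II genes showed no called diet effect over the 6 weeks. Of 6 tested members 1 was called, H2-DMb1, and it was higher in HFD islets, where 38.6% of all tested genes were called in either direction. The median diet effect was -0.01 over all genes tested. H2-DMb1 ranged from 0.29 through a median of 1.92 to 2.53 FPKM in 24 CD islets and from 0.97 through 2.19 to 5.76 FPKM in 24 HFD islets. The groups overlapped, and the upper values came from HFD mice. Its log2 difference was 0.28 (SE 0.10, adjusted p = 0.0193), between 0.24 and 0.32 and called without any single library. Without the islets with Ms4a1 it was 0.21 and not called (adjusted p = 0.0743). The 2 CD islets with the least H2-DMb1 were mice CD606 and CD608, with 0.29 and 0.74 FPKM. H2-DMb2, the neighboring second beta chain gene, was listed at 2.19 FPKM in mouse CD606 and 0.47 FPKM in mouse CD608. Its highest value, 2.45 FPKM, was in the islets of mouse CD407, where H2-DMb1 was 2.4 FPKM, and how fragments were shared between both beta chain genes was not tested.

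The chains of the peptide-binding pair and the invariant chain had diet effects near 0 in islets over the 6 weeks. H2-Ab1 ranged from 28.6 through a median of 37.3 to 61.4 FPKM in 24 CD islets and from 8.99 through 41.1 to 76.4 FPKM in 24 HFD islets. Cd74 ranged from 65.5 through 98.9 to 154 FPKM in CD and from 19.2 through 108 to 207.47 FPKM in HFD islets. For both genes the HFD islets held the lowest and the highest value and spanned the CD range. The differences were -0.01 (SE 0.12, adjusted p = 0.946) for H2-Ab1, -0.02 (SE 0.13, adjusted p = 0.907) for Cd74 and 0.01 (SE 0.19, adjusted p = 0.983) for H2-Aa, and under median ratio scaling they were 0.02, 0.01 and 0.04. H2-DMa was at -0.10 (SE 0.06, adjusted p = 0.149). Ciita was at -0.13 (SE 0.07, adjusted p = 0.157), with 0.19 to 1.87 FPKM in CD and 0.14 to 1.09 FPKM in HFD islets.

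Week by week, no class II gene was called between the diets in islets. At week 4 0 of 5 tested members were called by limma, with 1 at an unadjusted p under 0.05, beside 0% of all tested genes called. Week 8 gave 0 of 5, with 1 at an unadjusted p under 0.05, beside 5.27%. In that week H2-Ab1 was 28.6, 30, 31.1 and 47.8 FPKM in CD and 21.1, 26.6, 27 and 28.5 FPKM in HFD islets. All 4 HFD islets were under all 4 CD islets, by as little as 28.5 against 28.6 FPKM, as they were for 15.8% of all tested genes, and the difference was -0.38 (SE 0.16, adjusted p = 0.16). The all-gene median of week 8 was -0.11 and moved to 0.01 under median ratio scaling.

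At week 12 0 of 5 tested members were called in islets, with 2 at an unadjusted p under 0.05, beside 4.53% of all tested genes. Cd74 was 91.2, 92.3, 104.09 and 108 FPKM in CD and 107, 115, 127 and 134 FPKM in HFD islets. Of the HFD islets 3 were above all CD islets, and the difference was 0.28 (SE 0.09, adjusted p = 0.0721). It was called at 0.34 without mouse HFD313 (adjusted p = 0.0428) and at 0.30 under median ratio scaling (adjusted p = 0.0241), as was H2-Ab1 under that scaling (0.30, adjusted p = 0.034). Week 16 gave 0 of 4 by limma, with 0 at an unadjusted p under 0.05, beside 8.45% of all tested genes.

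At week 20 the islets of HFD mice HFD517 and HFD518 had high class II levels. H2-Ab1 was 35.5, 37.4, 39.1 and 51.2 FPKM in CD and 43.4, 45.9, 72.4 and 76.4 FPKM in HFD islets. H2-DMb1 was 1.17, 1.5, 1.79 and 2.25 FPKM in CD and 1.89, 2.26, 4.86 and 5.76 FPKM in HFD islets. The 2 highest values of each gene were those of mice HFD517 and HFD518. In the livers of these mice class II levels were the highest of the group in HFD517 and the lowest in HFD518. The differences in islets were 0.50 (SE 0.20, adjusted p = 0.162) for H2-Ab1 and 0.73 (SE 0.28, adjusted p = 0.143) for H2-DMb1. By limma 0 of 5 were called and 3 had an unadjusted p under 0.05, beside 4.74% of all tested genes. Without mouse HFD511 H2-DMb1 was at 0.93 (adjusted p = 0.0395) and H2-Aa at 0.71 (adjusted p = 0.0237), both called, and in the fit of 12 groups H2-DMb1 was called at 0.73 (adjusted p = 0.0419).

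At week 24 the islet differences of H2-Ab1 and Cd74 were under 0. Cd74 was 88.3, 91.5, 150 and 151 FPKM in CD and 19.2, 80.6, 102.93 and 113.47 FPKM in HFD islets. The 2 high CD islets were mice CD606 and CD608, the low HFD islet was mouse HFD614, and the diets overlapped. The difference was -0.82 (SE 0.61, adjusted p = 0.493), and without mice CD606 and CD608 it was -0.45 (adjusted p = 0.888). Without mouse HFD614 alone it was -0.24 (adjusted p = 0.692), and over single libraries left out it ran from -1.08 to -0.24, not called. Ciita was 0.42, 0.48, 1.38 and 1.87 FPKM in CD and 0.14, 0.28, 0.32 and 0.39 FPKM in HFD islets. All 4 HFD values were under all CD values, as they were for 2.41% of all tested genes, and mice CD606 and CD608 again held the 2 high ones. Ciita was under the filter of that week, and with no filter its difference was -0.61 (SE 0.22, adjusted p = 0.159), not called. Transcripts of leukocytes were high in the same 2 islets. In mice CD606 and CD608 Ms4a1 was 4.97 and 5.09 FPKM, against 0.22 and 0.15 FPKM in the other CD islets. Ptprc was 5.83 and 6.15 against 1.48 and 1.35 FPKM, and H2-Ob 3.56 and 3.1 against 0.3 and 0.21 FPKM. The part of such cells in the class II values was not tested. Of the 5 tested members 0 were called by limma at week 24 and 1 had an unadjusted p under 0.05, beside 8.3% of all tested genes.

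Along the weeks, 1 of 6 tested members was called in CD islets, beside 36.7% of all tested genes. It was Ciita, whose call is not counted, since 3 of the 4 libraries that took it over the filter are late CD islets (CD407, CD606 and CD608). With no filter the slope of Ciita was 0.09 per 4 weeks (SE 0.03, adjusted p = 0.0226). In the same fit with no filter 25.3% of all genes were called in either direction. The leukocyte markers Ptprc (0.17, adjusted p = 0.00664), Fcmr (0.18, 0.0448) and Lck (0.09, 0.0262) were called upward there in CD islets, and Cd22 (0.15, 0.0511) and Itgax (0.06, 0.0544) were not. Behind the filter 0 of 8 tested macrophage markers were called, and the other markers of B and T cells are not given here. The part of leukocyte markers in the slope of Ciita was not tested. H2-Aa, at 0.18 (SE 0.08, adjusted p = 0.0677), was called without mouse CD106 (0.23, 0.0242), CD203 (0.20, 0.0442) or CD605 (0.24, 0.0108), and it was 0.11 (0.314) without the islets with Ms4a1. In HFD islets 0 of 6 were called by limma and 0 had an unadjusted p under 0.05, beside 56.3% of all tested genes, and without the islets with Ms4a1 H2-Aa was called at 0.16 (adjusted p = 0.0402). The late minus early diet effect gave 0 of 6, with 1 at an unadjusted p under 0.05, beside 3.16% of all tested genes.

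For Cd74 and H2-DMa the diet effect differed between liver and islets, and for H2-Ab1 this depended on the setting. In a test of the difference itself, in one fit of all 96 libraries, 4 of 6 tested members were called, all higher in liver, beside 43.9% of all tested genes called in either direction. The liver minus islet diet effect was 0.57 for H2-Ab1 (SE 0.19, adjusted p = 0.0114), 0.62 for Cd74 (SE 0.20, adjusted p = 0.00878) and 0.48 for H2-DMa (SE 0.11, adjusted p = 0.00016). The other call was that of Ciita and is not counted, for the filter named above, and with no filter Ciita was at 0.25 (SE 0.08, adjusted p = 0.00856). It was 0.36 for H2-Aa (SE 0.25, adjusted p = 0.248) and 0.18 for H2-DMb1 (SE 0.14, adjusted p = 0.308). The median was 0.09 over all genes tested, of which 70.7% were above 0, and median ratio scaling moved it to -0.02. On that scale H2-Ab1 was at 0.43 and no longer called (adjusted p = 0.0516), Cd74 (0.47, adjusted p = 0.0406) and H2-DMa (0.40, adjusted p = 0.00175) were called, and Ciita was not tested. Without the islets with Ms4a1 H2-Ab1 was at 0.44 and not called (adjusted p = 0.0669), and Cd74 (0.49, adjusted p = 0.0484) and H2-DMa (0.39, adjusted p = 0.00245) were called. Without any of the mice CD407, CD606, CD608 or HFD113 Ciita was not tested and 3 members were called. With the mouse as a replicate block the calls were kept, with H2-Ab1 at 0.57 (adjusted p = 0.00862), Cd74 at 0.62 (0.00647) and H2-DMa at 0.48 (9.74e-05).

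Several groups of genes around the class II pathway were read in the same fits over the 6 weeks. Other class II genes (H2-Ea, H2-Eb2, H2-Oa, H2-Ob and H2-DMb2) were mostly under the filter, with 0 of 5 tested in liver and 1 of 5 in islets. H2-Ob, a chain that restrains H2-DM in B cells, passed in islets through mice CD106, CD407, CD606, CD608 and HFD113. Most of these are CD islets where it is high, so its limma test (-0.28, SE 0.13, adjusted p = 0.0916) is not counted for it. Of 7 factors that act on class II promoters besides Ciita (Rfx5, Rfxank, Rfxap, Nfya, Nfyb, Nfyc and Creb1), 2 were called higher and 1 lower in HFD livers, beside 42.6% of all tested genes called, Nfya at 0.27 and Nfyc at 0.10 against Rfxap at -0.12. In islets 1 was higher, Nfyb at 0.12, and 1 lower, Rfx5 at -0.11, beside 38.6% of all tested genes called. The list median was 0.02 in liver and -0.01 in islets.

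Endosomal enzymes prepare peptides and trim the invariant chain. In liver 5 of 6 were called higher and 0 lower, beside 42.6% of all tested genes called, of which 84.1% were higher, with Ctss, which cleaves the invariant chain, at 0.74 (SE 0.10, adjusted p = 3.39e-07), Lgmn at 0.48 and Ifi30 at 0.39, and a list median of 0.35. In islets 4 of 6 were called higher and 0 lower, beside 38.6% called, of which 43.1% were higher, with Ctsd at 0.23 and Ctsl at 0.19, a list median of 0.17 and Ctss at 0.16 (adjusted p = 0.141). Of the 2 ubiquitin ligases that remove class II from the surface, Marchf8 was tested in both tissues and called higher in liver (0.29) and not in islets (0.01, adjusted p = 0.741), and Marchf1 was under the filter. Of 3 costimulatory genes, Cd86 passed the filter in liver through 8 HFD livers and 1 CD liver, and with no filter it was at 0.32 (adjusted p = 7.7e-06). Cd80 and Cd40 were under the filter there, and 0 of 3 were tested in islets.

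The interferon gamma axis is the best known inducer of Ciita. In liver, where 42.6% of all tested genes were called, Ifngr2 (0.36), Ifngr1 (0.32) and Jak1 (0.13) were higher, and Jak2 (0.09, adjusted p = 0.16) and Irf1 (0.01, adjusted p = 0.934) were not called. In islets, beside 38.6% of all tested genes, Ifngr1 (0.16) and Ifngr2 (0.14) were called higher, Jak1 and Irf1, each at -0.15, lower, and Jak2 (0.01, adjusted p = 0.875) was not called. Ifng itself was listed at 0 in 30 of 48 livers and 40 of 48 islets. Of 10 class I presentation genes, 6 of 10 tested were called higher and 0 lower in liver, with Psmb9 at 0.53, Tap1 at 0.44 and a median of 0.16. In islets 0 of 9 tested were called higher and 3 lower, Psmb9 at -0.32, Psmb8 at -0.25 and Tap1 at -0.10.

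Over the 6 weeks, most macrophage markers were called higher in HFD livers. Of 9 macrophage markers 8 were tested in liver and 7 called higher and 0 lower, beside 42.6% of all tested genes called, of which 84.1% were higher, with a median of 0.60, Cd68 at 0.93, Lyz2 at 0.68, Adgre1 at 0.66 and C1qb at 0.62. Their summed level ranged from 65.5 through a median of 117 to 202.55 FPKM in CD livers and from 74 through 182 to 406 FPKM in HFD livers, and the most abundant by median was C1qa at 38.2 FPKM. In the HFD livers with low class II values the sum was 92.8 FPKM in mouse HFD411, the lowest of its group of 4, and 138 FPKM in mouse HFD614, also the lowest of its group. In mouse HFD517, with the highest class II values of week 20, it was 406 FPKM. These mice were picked by their class II values, and the sums of other livers, among them that of mouse HFD518, are not given here. Whether the sums follow the class II levels over all livers was not tested. Of 5 Kupffer cell markers 2 were called higher and 0 lower, near that share, Cd5l at 0.58 and Vsig4 at 0.26, while Clec4f was at 0.23 (adjusted p = 0.0601). Of 8 dendritic cell markers 3 were tested. Zbtb46 (0.01, adjusted p = 0.842) and Clec9a (0.09, adjusted p = 0.153) were not called, and the call of Itgax, a marker of dendritic cells and of some macrophages, is not counted, since it passed the filter through 5 HFD livers and 0 CD livers. With no filter Itgax was at 0.43 (SE 0.06, adjusted p = 2.69e-07), and Flt3 and Xcr1 had medians of 0.06 and 0.11 FPKM. The leukocyte marker Ptprc was called higher at 0.39. Of the B cell markers Cd79a was tested in liver and not called (-0.05, adjusted p = 0.602), and of T cell markers 1 of 10 was tested and called, Zap70 at 0.18. The slopes of these markers were not tested against those of the class II genes. In CD livers 6 of 8 tested macrophage and 4 of 5 Kupffer cell markers were called upward, and 0 of 5 members, beside 28.3% of all tested genes called in either direction. In HFD livers they were 4 of 8, 0 of 5 and 5 of 5, beside 27.3%. The median diet effect of the tested members was 0.28, -0.35, 0.51, 1.15, 0.80 and 0.45 from week 4 to week 24. That of the macrophage markers was 0.73, -0.14, 0.91, 0.90, 0.81 and 0.11, and that of the Kupffer cell markers 0.77, -0.22, 0.64, 0.37, 0.37 and -0.60. The 3 medians had the same sign in each week but week 24. No macrophage or Kupffer cell marker was listed at 0 in any liver, and the part of these markers in the diet effect of the class II genes was not tested.

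In islets, where 38.6% of all tested genes were called and 43.1% of those were higher, some markers of lymphoid cells were called lower in HFD mice. The B cell marker Cd79a was called lower (-0.52), and Fcer2a (-0.30, adjusted p = 0.0607), Fcmr (-0.34, 0.0963) and Cd79b (-0.44, 0.112) were not called. Ms4a1 passed the filter through the islets with Ms4a1 named above, all of CD mice but that of HFD113. Its limma test (-0.44, adjusted p = 0.0565) is therefore not counted for it. Cd22 passed the filter through 5 CD islets and 1 HFD islet, and with no filter it was at -0.40 (adjusted p = 0.0271). Cd79a was the most abundant of these, with a median of 6.98 FPKM over 48 libraries. Ms4a1 was listed at 0 in 2 islet libraries. Of 10 T cell markers 2 were tested, and the call of Lck is not counted, since it passed the filter through 4 CD islets and 0 HFD islets. With no filter Lck was at -0.25 (adjusted p = 0.00578), and the other tested T cell marker is not given here. Of 5 lymph node stroma markers 2 were tested and 1 called lower, Ccl21a at -0.60. In liver 3 lymph node stroma markers passed the filter, mostly through 1 diet, and with no filter Ccl19 was at 0.24 (adjusted p = 0.0491), Ccl21a at -0.41 (0.000496) and Cxcl13 at -0.33 (0.000376). Of 9 macrophage markers 8 were tested in islets and 2 called higher and 0 lower, C1qa at 0.25 and Adgre1 at 0.22, and in the week 20 islets of mice HFD517 and HFD518 their sums were 156 and 168 FPKM, the highest of the group. Of 8 dendritic cell markers 2 were tested in islets and 0 called, Ptprc was at -0.15 (adjusted p = 0.327), and 0 of 5 Kupffer cell markers were tested. The part of these markers in the islet values of the class II genes was not tested.

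Some tissue markers also differed between the diets, beside 38.6% of all tested genes called in islets and 42.6% in liver. Of 8 acinar markers 5 were called lower and 0 higher in HFD islets, with Amy2a5 at -1.49, and 0 of 7 tested were called in liver. Of 6 islet endocrine markers, Ins1, Ins2 and Iapp were called higher and Gcg, Sst and Ppy lower in HFD islets, and 4 were called lower in HFD livers, among them Ins1 at -1.73. Of 6 hepatocyte markers 1 was called higher and 2 lower in islets and 0 higher and 1 lower in liver. Of 5 endothelial markers 1 was called higher and 1 lower in islets and 0 in liver. Leaving out the livers with Ins1 kept the 4 class II calls of the liver over the 6 weeks, with H2-Ab1 at 0.57 (adjusted p = 0.00476) and Cd74 at 0.59 (adjusted p = 0.00497).

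From mouse to mouse, H2-Ab1, Cd74 and H2-DMa varied together in both tissues, and H2-DMb1 with them in liver and less so in islets. With the mean of each group subtracted, H2-Ab1 and Cd74 had a Pearson r of 0.99 and a Spearman rho of 0.98 over 48 islet libraries, and 0.97 and 0.95 over 48 liver libraries. H2-Ab1 and H2-DMa had an r of 0.84 in islets and 0.91 in liver, with a rho of 0.83 and 0.84. H2-Ab1 and H2-DMb1 had an r of 0.85 and a rho of 0.84 in liver, and an r of 0.37 and a rho of 0.38 in islets, where r fell to 0.27 without the 2 libraries farthest from the median of H2-Ab1. H2-Aa and H2-Ab1 had an r of 0.59 in islets and 0.39 in liver, with a rho of 0.60 and 0.55. In islets H2-DMb1 had an r of 0.26 and a rho of 0.32 with H2-DMa, its partner, and an r of 0.01 and a rho of 0.11 with H2-Aa. Ciita was close to H2-DMa (r of 0.77, rho of 0.79) and not to H2-DMb1 (r of -0.14, rho of 0.07) in islets. These values carry no test, and the libraries share whatever differs between mice within a group.

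Genes with a pattern like that of the class II genes were found by Pearson r with the mean of the standardized members over 48 libraries. In liver, with group means subtracted, the 5 closest were Cd52 (0.84), Selplg (0.84), Axl (0.83), Fcgr4 (0.83) and Evl (0.82). Without that subtraction they were Cd52 (0.88), Fcgr4 (0.87), Selplg (0.85), Tmsb4x (0.85) and Apbb1ip (0.84). In islets, with group means subtracted, they were Plbd1 (0.83), Nckap1l (0.82), Laptm5 (0.82), Cybb (0.81) and Il10ra (0.79), and without it Selplg (0.83), Laptm5 (0.80), Cyp4f18 (0.79), Csf1r (0.77) and Psmb8 (0.76). The members' mean without that subtraction carries the diet effect itself, so the diet effect of genes found that way is no separate result.

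Class II promoters are known for an X box, bound by RFX, and a Y box, bound by NF-Y, to which Ciita is recruited. Promoter sequences of RefSeq (GRCm38.p6, 250 bases before to 50 after the start) were found for 4 of the 7 genes, H2-Aa, H2-Eb1, H2-DMb1 and H2-DMa, the last with 2 starts, and not for H2-Ab1, Ciita and Cd74. They were searched on both strands for CCAAT and for CCTNGNNAC, letters of the Y box and of the X box. CCAAT was in 4 of the 5 promoters, beside 37.4% of all 32851 promoters. CCTNGNNAC was in 1 of the 5, beside 15.8% of all promoters, and both, starting within 60 bases, in 1 of the 5, that of H2-DMb1, beside 2.6%. Of the other class II genes all 4 promoters held CCAAT, and 1 of 4, that of H2-Ob, held both within 60 bases. A match is a description, not a site or a cause. The 100 bases from 120 to 21 before the start are shown for H2-DMb1, H2-Aa and H2-Eb1, 5′ to 3′ on the strand of the gene, since these show how the matches lie in a gene of the H2-DM pair and in chains of the peptide-binding pairs. They are chr17:34153071-34153170 (plus strand) for H2-DMb1, chr17:34287844-34287943 (minus strand) for H2-Aa and chr17:34305747-34305846 (plus strand) for H2-Eb1. Capitals mark CCTNGNNAC and CCAAT, the latter read as ATTGG where it is on the other strand.
H2-DMb1: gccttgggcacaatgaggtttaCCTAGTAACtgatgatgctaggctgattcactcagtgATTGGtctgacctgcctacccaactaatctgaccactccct
H2-Aa: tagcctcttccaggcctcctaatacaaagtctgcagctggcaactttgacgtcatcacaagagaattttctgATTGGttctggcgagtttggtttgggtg
H2-Eb1: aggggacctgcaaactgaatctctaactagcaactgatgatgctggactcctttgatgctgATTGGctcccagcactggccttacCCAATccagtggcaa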

How the data were processed

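The 7 genes and the lists of related genes and cell markers were chosen with earlier results of these data known. The values are FPKM as deposited by the authors, whose notes name HISAT2 2.0.4, Bowtie2 2.2.5, RSEM 1.1.12, DESeq2 (without a version) and GRCm38.p5. The authors' other columns hold log2 ratios, p- and q-values by DEGseq, group mean FPKM and module and cluster labels, and they were not used. A gene was taken by its gene symbol in the table, and genes without values were left out.

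FPKM was used as log2(FPKM + 1). Genes were kept with 1 FPKM or more in 4 or more libraries of a fit, or in 3 where 1 of 8 was left out. Fits used limma 3.58.1 in R 4.3.3 with a variance trend and robust moderation, and p-values were adjusted by Benjamini-Hochberg over all genes tested. The diet effect over the 6 weeks is the mean of 6 weekly differences from a fit of 12 groups, weekly effects come from fits of 8 libraries, and the tissues were compared in a fit of 24 groups. Islets and liver of a mouse were paired by mouse number, with a consensus correlation of 0.0526 for the mouse as replicate block. Counts and correlations were made with pandas 2.3.3 and numpy 2.4.6, and figures with matplotlib 3.10.9, in Python 3.11.15. The limits of 50 FPKM of Ins1 and 1 FPKM of Ms4a1 and the H2-Aa search were set after the values had been seen. Read counts and depth are not in the table. Counts over some lists rest on an item that is not reported here, as does a further alternative without some islets, where H2-DMb1 in islets and H2-Ab1 and Cd74 in the liver minus islet diet effect lost their calls.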

Additional observations from a re-analysis of the deposited data

Results flagged for a closer look

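Of 168 groups of 4 (7 genes, 24 groups), 18 held a value far from the other 3 by Dixon's ratio. Chance alone marks about 1 in 20 of independent groups. These groups are not independent, since the 7 genes share libraries and some vary together, so the count was not tested against that share. The values are in FPKM.

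H2-Aa was 0 in the liver of mouse HFD118 at week 4 (others 2.41, 2.54 and 2.69), 47.62 in the islets of mouse HFD318 at week 12 (36.27, 37.25 and 37.33) and 2.93 in the liver of mouse HFD614 at week 24 (7.27, 7.62 and 8.16). H2-Ab1 was 47.78 in the islets of mouse CD203 at week 8 (28.59, 29.99 and 31.14), 57.89 in the islets of mouse CD407 at week 16 (29.62, 31.24 and 33.14) and 9.08 in the liver of mouse HFD614 (27.21, 28.08 and 28.8). H2-Eb1 was 0.55 in the liver of mouse CD203 at week 8 (0.16 in the other 3) and 0.64 in the islets of mouse HFD518 at week 20 (0.14, 0.21 and 0.22).

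Cd74 was 153.98 in the islets of mouse CD407 at week 16 (76.02, 76.33 and 85.19) and 20.67 in the liver of mouse HFD614 at week 24 (58.17, 64.01 and 64.22). Ciita was 0.05 in the liver of mouse CD106 at week 4 (0.13, 0.14 and 0.14), 0.59 in the islets of mouse CD203 at week 8 (0.25, 0.27 and 0.28) and 1.71 in the islets of mouse CD407 at week 16 (0.33, 0.42 and 0.45). H2-DMb1 was 1.01 in the islets of mouse CD106 at week 4 (1.83, 1.86 and 1.98), and in liver 2.8 in mouse CD502 at week 20 (1.87, 1.92 and 1.94), 1.05 in mouse CD606 at week 24 (1.99, 2.12 and 2.18), 3.7 in mouse HFD318 at week 12 (2.62, 2.68 and 2.77) and 7.41 in mouse HFD517 at week 20 (3.34, 3.79 and 3.8).

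The diet effect differed between liver and islets by the limma test for H2-Ab1 (0.57, adjusted p = 0.0114), Cd74 (0.62, adjusted p = 0.00878), Ciita (0.25, adjusted p = 0.00687) and H2-DMa (0.48, adjusted p = 0.00016), in log2 units. Ciita passed the filter only through 4 islets where it is high, so its call is not counted. The causes were not tested.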

How the results depend on the processing

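Members called are given as reported, then under the alternative. With a log2 fold change of at least 1 also asked for, islets over the 6 weeks went from 1 to 0, liver over the 6 weeks from 4 to 0, liver week 12 from 3 to 0, the liver minus islet diet effect from 4 to 0 and the liver minus islet level from 5 to 2. Under median ratio scaling, islet week 12 went from 0 to 2, liver week 12 from 3 to 1 and the liver minus islet diet effect from 4 to 2. In one fit of all 12 groups, islet week 20 went from 0 to 1, islet week 24 from 0 to 1 (Ciita, whose call is not counted), liver week 12 from 3 to 0, liver week 16 from 0 to 4 and liver week 20 from 0 to 1. At a pseudocount of 0.1 the liver HFD trend went from 5 to 3, and with no filter liver week 12 went from 3 to 1.

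With the mouse as a replicate block (paired tissues), 4 members stayed called for the liver minus islet diet effect and 5 for the level. Leaving out the livers with Ins1, an alternative chosen after seeing the data, left 4 members called in liver over the 6 weeks and took liver week 12 from 3 to 2 (Cd74) and the liver HFD trend from 5 to 4 (H2-DMa). Leaving out the islets with Ms4a1, also chosen after seeing the data, moved islets over the 6 weeks from 1 to 0, the islet CD trend from 1 to 0, the islet HFD trend from 0 to 1 and the liver minus islet diet effect from 4 to 2.

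Leaving out 1 library at a time gave, lowest to highest, for islets 1 to 1 over the 6 weeks, 0 to 0 late minus early, 0 to 2 in the CD trend, 0 to 0 in the HFD trend, 0 to 0 at weeks 4, 8, 16 and 24, 0 to 1 at week 12 and 0 to 2 at week 20. For liver it gave 4 to 5 over the 6 weeks, 0 to 0 late minus early, 0 to 0 in the CD trend, 4 to 5 in the HFD trend, 0 to 0 at weeks 4 and 8, 0 to 4 at weeks 12, 16 and 20 and 0 to 2 at week 24. The liver minus islet diet effect had 3 to 4 and the level 4 to 5. Single-gene results kept their call in 535 cases, became stronger in 11 and weaker in 18, and over libraries left out in 3086, 22 and 20, with 0 reversed.

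Counts over all genes tested changed by more than 1.5 times as follows (a value in % is the share of genes tested). With the fold limit, islets went from 4782 to 33 over the 6 weeks, 391 to 13 late minus early, 613 to 11 at week 8, 4.53% to 0.346% at week 12, 8.45% to 0.967% at week 16, 555 to 64 at week 20 and 972 to 86 at week 24. Liver went from 4630 to 96 over the 6 weeks, 19 to 6 late minus early, 5 to 3 at week 4, 752 to 126 at week 8, 10.6% to 1.13% at week 12, 751 to 143 at week 16, 252 to 119 at week 20 and 85 to 39 at week 24. The trends went from 4543 to 0 (islet CD), 6970 to 0 (islet HFD), 3082 to 0 (liver CD) and 2965 to 2 (liver HFD). The liver minus islet diet effect went from 5861 to 146 and the level from 12850 to 6647. Scaling gave 174 for 613 in islet week 8, 7.53% for 4.53% in islet week 12, 35 for 19 in liver late minus early and 1 for 5 in liver week 4. No filter gave 154 for 613 in islet week 8, 1637 for 988 in islet week 16, 0.668% for 2.47% in liver week 20 and 1 for 5 in liver week 4, as did the pseudocount of 0.1. One fit gave, for islets, 17 for 0 at week 4, 949 for 613 at week 8, 9.85% for 4.53% at week 12, 1201 for 555 at week 20 and 1620 for 972 at week 24. For liver it gave 1.03% for 0.0506% at week 4, 1626 for 1059 at week 12, 1004 for 252 at week 20 and 399 for 85 at week 24. Without livers with Ins1 there were 2121 for 1059 at week 12, 166 for 751 at week 16 and 11 for 19 late minus early. Without islets with Ms4a1 there were 1.67% for 3.16% late minus early, 2992 for 4543 in the CD trend, 221 for 613 at week 8, 1.76% for 4.74% at week 20 and 373 for 972 at week 24. The cause was not tested.

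The share of called genes that were higher moved by over 10 percentage points under median ratio scaling. In islets it went from 43.1% to 59.7% over the 6 weeks, 69.3% to 51.5% late minus early, 69.6% to 47.3% in the CD trend, 84.6% to 51.8% in the HFD trend, 11.4% to 59.8% at week 8, 48.1% to 59.4% at week 12, 39.1% to 53.3% at week 16, 32.3% to 61.8% at week 20 and 79.1% to 60.6% at week 24. In liver it went from 84.1% to 45.1% over the 6 weeks, 55.5% to 41.8% in the CD trend, 56.8% to 44% in the HFD trend, 80% to 100% at week 4, 82.3% to 70.6% at week 8, 88.6% to 51.4% at week 12 and 90.8% to 69.9% at week 16. It went from 80.8% to 43% for the liver minus islet diet effect and from 31.4% to 48.4% for the level.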
